A study of Mus musculus with 38 samples.

Results

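The genes examined here are Rhd, Kel and Icam4, which encode membrane proteins that carry blood group antigens on red cells. They were taken by gene symbol from the probe annotation of the array, which gave 3 of 9616 genes and 5 of 13443 probes: 3 for Rhd, 1 for Kel and 1 for Icam4. One Rhd probe, 009I18, had a value in only 1 of 38 arrays (log2 ratio 1.05, untreated mouse 3) and could not be followed. The other 4 probes were among the 8319 that were measured in 3 or more mice of every group. The 3 genes were selected on their log2 ratios in these same mice, having been seen to be low after treatment, so their levels and differences are described below without a test.

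Spleen cells of DBA/2 mice, an inbred strain, were profiled in 5 untreated mice and in mice harvested 1 day (4 mice), 2 days (5 mice) and 5 days (5 mice) after an intraperitoneal injection of cyclophosphamide at 83 mg/kg. This alkylating agent crosslinks DNA, which harms cycling cells most. The labels give neither the age nor the sex of the mice, and no vehicle injection is described for the untreated group. Each value is a log2 ratio of a spleen sample (Cy5) over a common pool of bone marrow cells (Cy3), the mean of 2 technical arrays per mouse, and is read here as relative to the pool after the scaling of each array, with a difference of 1 between groups as a 2-fold change. The base of the logarithm is not stated in the labels and was taken as 2. The comparisons of days 1, 2 and 5 with untreated mice share the same 5 untreated mice.

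The red pulp of the mouse spleen makes red cells throughout life, and its erythroblasts build the red cell membrane while they divide and mature. The Rh protein, encoded in mice by Rhd, spans the membrane and assembles with the Rh-associated glycoprotein Rhag. The Kell protein, encoded by Kel, is a zinc endopeptidase of the cell surface that is joined by a disulfide bond to the membrane protein Xk. Icam4, the carrier of the Landsteiner-Wiener blood group, is an immunoglobulin-type adhesion molecule through which erythroblasts attach to integrins, including those of the macrophage at the centre of an erythroblastic island.

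The start regions of the 3 genes are shown because the genes were low in the same groups of mice while lying on 3 different chromosomes. Each stretch, from RefSeq on build GRCm38.p6, runs 5′ to 3′ on the strand of its gene from 250 bases before the annotated start to 50 bases after it. Capitals mark matches to the GATA-type hexamers, which read AGATAA or AGATAG or else TGATAA or TGATAG, on either strand. GATA factors are regulators of red cell formation that recognise such letters. The Rhd stretch is chr4:134864286-134864585 (plus strand), the Kel stretch is chr6:41704276-41704575 (minus strand) and the Icam4 stretch is chr9:21029182-21029481 (plus strand).
Rhd: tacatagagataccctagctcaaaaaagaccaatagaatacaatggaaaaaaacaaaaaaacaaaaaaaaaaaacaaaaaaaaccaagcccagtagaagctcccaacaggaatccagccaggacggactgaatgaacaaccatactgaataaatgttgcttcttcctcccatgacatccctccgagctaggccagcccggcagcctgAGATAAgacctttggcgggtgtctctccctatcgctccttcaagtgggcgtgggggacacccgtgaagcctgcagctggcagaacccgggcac
Kel: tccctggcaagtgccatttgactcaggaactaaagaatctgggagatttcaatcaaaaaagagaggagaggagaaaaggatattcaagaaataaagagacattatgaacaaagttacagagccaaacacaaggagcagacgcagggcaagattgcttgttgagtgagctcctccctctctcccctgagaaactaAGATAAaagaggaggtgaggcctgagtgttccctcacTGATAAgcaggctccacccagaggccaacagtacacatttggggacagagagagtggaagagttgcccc
Icam4: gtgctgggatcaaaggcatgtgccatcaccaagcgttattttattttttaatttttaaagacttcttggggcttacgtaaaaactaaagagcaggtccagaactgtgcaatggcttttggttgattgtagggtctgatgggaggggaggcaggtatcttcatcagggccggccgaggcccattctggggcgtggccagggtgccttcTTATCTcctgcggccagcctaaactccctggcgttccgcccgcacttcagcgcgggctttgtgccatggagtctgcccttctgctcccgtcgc

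All 3 stretches held a GATA-type hexamer close to the start. In Rhd AGATAA began 43 bases before the start, in Kel AGATAA began 56 bases and TGATAA 19 bases before it, and in Icam4 the reverse complement TTATCT began 43 bases before it. Of 32851 RefSeq start regions of the same length, 29.8% held at least 1 of these hexamers on either strand. In the gene lists followed below, a gene counted if any of its start regions held a match. Such genes were 7 of 29 blood group carrier genes, 7 of 12 membrane skeleton genes and 13 of 20 red cell precursor genes. Among the partners of the Rh and Kell proteins, whose levels are given below, Rhag held TTATCA beginning 31 bases before its start and Xk held none. The letters CCNCNCCC, a pattern of the KLF type searched on both strands, were present in Rhd (1 match, beginning 3 bases after the start) and in Icam4 (2 matches, 112 and 64 bases before it), and in 49.5% of all start regions; the Kel stretch has none of these letters. A match describes letters in the window and is not evidence of a factor bound there.

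The 2 Rhd probes, annotated to the same transcript, gave different pictures. At probe 031C19 the untreated mice 1 to 5 had log2 ratios of -0.46, -2.12, -0.22, 0.14 and 0.11, and the day 1 mice 1 to 4 had -2.91, -3.90, -2.37 and -3.29. The day 2 mice 1 to 5 had -4.09, -3.63, -4.58, -3.09 and -4.50, and the day 5 mice 1 to 5 had 0.03, -1.10, -0.46, -1.44 and -0.57. Every mouse of days 1 and 2 lay below every untreated and every day 5 mouse. Untreated mouse 2 stood apart from the other untreated mice and came within 0.25 of the highest day 1 mouse.

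The group means at this probe were -0.51 ± 0.93 (SD, n = 5) untreated, -3.12 ± 0.64 (n = 4) on day 1, -3.98 ± 0.62 (n = 5) on day 2 and -0.71 ± 0.57 (n = 5) on day 5. Relative to untreated mice Rhd was thus 6.1-fold lower on day 1 (log2 -2.61 ± 0.42 SE) and 11.1-fold lower on day 2 (log2 -3.47 ± 0.39). Of 8319 probes, 1 had a lower difference on day 1 and 4 on day 2. On day 5 the difference was -0.20 ± 0.39, which is inside the spread of the untreated mice. In order of level, untreated and day 5 mice overlapped at the top, and day 2 and day 1 mice overlapped at the bottom.

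**Figure D1:**
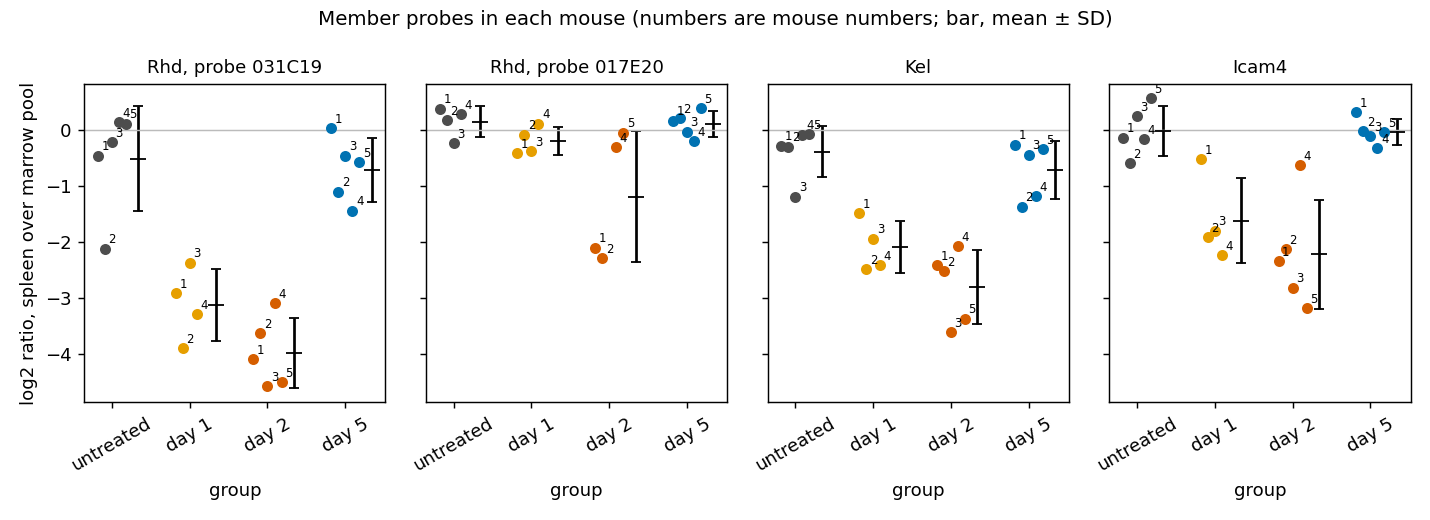
Log2 ratio of spleen over the marrow pool (vertical axis) in each mouse by group (horizontal axis) for the 4 member probes; points are mice with their numbers, and black bars give the group mean ± SD. At Rhd probe 031C19 all day 1 and day 2 mice lie between -4.58 and -2.37, below all day 5 mice, while at Rhd probe 017E20 only day 2 mice 1 and 2 lie below -2.

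At probe 017E20 the untreated mice 1 to 4 had 0.38, 0.18, -0.24 and 0.28, with no value in mouse 5, and the day 1 mice 1 to 4 had -0.41, -0.08, -0.38 and 0.11. The day 2 mice 1, 2, 4 and 5 had -2.10, -2.29, -0.31 and -0.05, with no value in mouse 3, and the day 5 mice 1 to 5 had 0.17, 0.21, -0.03, -0.20 and 0.39. On day 2 this probe was low in mice 1 and 2 and near the untreated range in mice 4 and 5, and the ranges of all 4 groups overlapped. Day 2 mouse 5, at -4.50 among the lowest on the other Rhd probe, was the highest day 2 mouse on this one.

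The differences from untreated mice at probe 017E20 were -0.34 ± 0.37 on day 1, -1.33 ± 0.37 on day 2 and -0.04 ± 0.35 on day 5 (SE, each with 4 untreated mice). Without day 2 mouse 2 the day 2 difference was -0.96. The 2 technical arrays of day 2 mouse 1 gave -1.08 and -3.11 here, a gap of 2.04, and only 0.216% of all technical pairs in the table differ by 2 or more. Both probes had their lowest mean on day 2 and means near the untreated value on day 5, and they differed in size and in which mice were low.

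Kel, the surface peptidase, had a pattern like that of Rhd probe 031C19. Untreated mice 1 to 5 had log2 ratios of -0.28, -0.30, -1.19, -0.08 and -0.07, and day 1 mice 1 to 4 had -1.49, -2.49, -1.94 and -2.41. Day 2 mice 1 to 5 had -2.41, -2.52, -3.61, -2.07 and -3.37, and day 5 mice 1 to 5 had -0.26, -1.37, -0.44, -1.18 and -0.34. All mice of days 1 and 2 lay below all untreated and all day 5 mice, with a gap of 0.12 between the highest day 1 and the lowest day 5 mouse.

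The means of Kel were -0.38 ± 0.46 (SD, n = 5) untreated, -2.08 ± 0.47 (n = 4) on day 1, -2.80 ± 0.66 (n = 5) on day 2 and -0.72 ± 0.52 (n = 5) on day 5. Kel was 3.25-fold lower on day 1 (log2 -1.70 ± 0.32 SE) and 5.32-fold lower on day 2 (log2 -2.41 ± 0.30) than in untreated mice, and differed by -0.34 ± 0.30 on day 5. The low value of untreated mouse 3 came from 1 technical array, at -2.21 against -0.17 in the other. With the second array alone for this mouse, a choice made after seeing the data, the differences of Kel were -1.90 ± 0.29 on day 1, -2.62 ± 0.27 on day 2 and -0.54 ± 0.27 on day 5.

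Icam4, the adhesion molecule, was also low on days 1 and 2, with 1 mouse of each day near the untreated range. Untreated mice 1 to 5 had log2 ratios of -0.14, -0.59, 0.25, -0.16 and 0.57, and day 1 mice 1 to 4 had -0.52, -1.91, -1.80 and -2.24. Day 2 mice 1 to 5 had -2.34, -2.13, -2.82, -0.63 and -3.18, and day 5 mice 1 to 5 had 0.32, -0.02, -0.11, -0.32 and -0.04. Day 1 mouse 1 lay above the lowest untreated mouse, so these groups overlapped, and the day 2 and untreated ranges were 0.04 apart.

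The means of Icam4 were -0.01 ± 0.44 (SD, n = 5) untreated, -1.62 ± 0.76 (n = 4) on day 1, -2.22 ± 0.98 (n = 5) on day 2 and -0.03 ± 0.23 (n = 5) on day 5. Icam4 was 3.04-fold lower on day 1 (log2 -1.61 ± 0.39 SE) and 4.61-fold lower on day 2 (log2 -2.21 ± 0.37) than untreated, and the day 5 difference was -0.02 ± 0.37. Without day 1 mouse 1 the day 1 difference was -1.97, and without day 2 mouse 4 the day 2 difference was -2.60. The day 5 mean of Icam4 was the nearest to its untreated mean among the 4 probes, and Kel had the widest gap there. This order depended on the scaling. With arrays brought to the same distribution by quantile normalization, the day 5 differences were -0.03 for Rhd probe 017E20 and -0.05 for Icam4. They were -0.58 for Kel and -0.6 for Rhd probe 031C19.

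**Figure D2:**
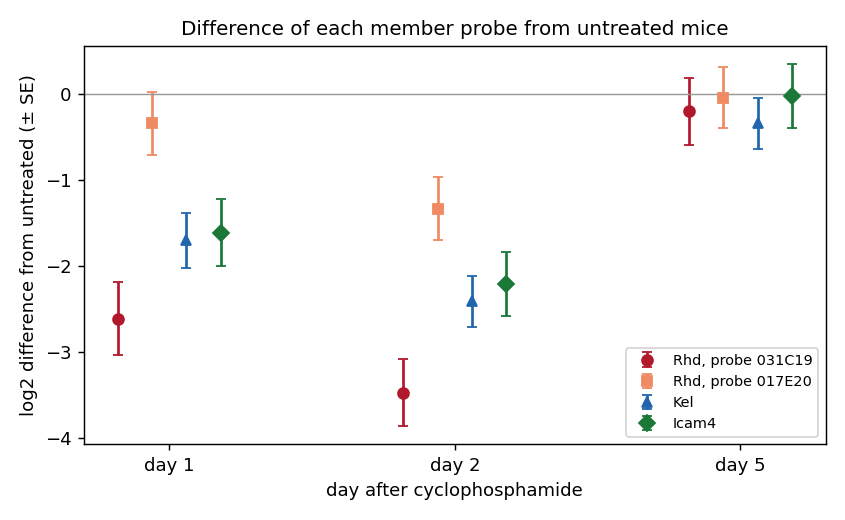
Log2 difference from untreated mice (vertical axis) on days 1, 2 and 5 after cyclophosphamide (horizontal axis) for each member probe; points are differences between group means and bars are ± SE of the limma fit. All 4 probes have their lowest value on day 2, from -3.47 at Rhd probe 031C19 to -1.33 at Rhd probe 017E20, and lie between -0.34 and -0.02 on day 5.

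The step from day 1 to day 2 was smaller than the step from untreated to day 1 at Rhd probe 031C19 (-0.86 ± 0.42), Kel (-0.71 ± 0.32) and Icam4 (-0.60 ± 0.39). At Rhd probe 017E20 it was the larger step, at -1.0 ± 0.37 against -0.34 ± 0.37. The ranges of the day 1 and day 2 mice overlapped for each of the 4 probes. Over all probes, the SD within a mouse spanned 0.41 to 0.53 in the untreated group, 0.508 to 0.586 a day after the drug and 0.506 to 0.699 after 2 days. With arrays brought to the same distribution by quantile normalization the step was -0.17 for Rhd probe 031C19, -0.06 for Kel, -0.06 for Icam4 and -0.69 for Rhd probe 017E20, so its size depended on the scaling. From day 2 to day 5 the level was 9.65-fold higher for Rhd probe 031C19 (log2 3.27 ± 0.39), 4.22-fold for Kel (log2 2.08 ± 0.30), 4.55-fold for Icam4 (log2 2.19 ± 0.37) and 2.45-fold for Rhd probe 017E20 (log2 1.29 ± 0.35). After quantile normalization these values were 2.23, 1.17, 1.64 and 1.02 on the log2 scale.

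The share of all tested probes with the same separation of mice sets a scale for these ranges. Day 1 mice were below the whole untreated range for 2 of the 4 member probes and for 4.08% of all 8319 probes. Day 2 mice were below it for 3 of 4 member probes and for 4.98% of all, and day 5 mice for 0 of 4 and for 0.914% of all. The whole day 5 range lay above day 2 mice for 3 of 4 member probes and 4.8% of all, and above day 1 mice for 3 of 4 and 2.58% of all. The members were chosen for these differences, so nothing is read from the excess.

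Within the treated groups the same mice tended to be low for several members. On day 2, mice 3 and 5 were the 2 lowest and mouse 4 the highest for Rhd probe 031C19, Kel and Icam4. On day 5, mice 2 and 4 were the 2 lowest and mouse 1 the highest for Rhd probe 031C19 and Kel, with mouse 1 highest and mouse 4 lowest for Icam4. Alas2, which makes the first intermediate of heme in red cell precursors, had the same order at the ends: day 2 mouse 5 at -4.98 and mouse 3 at -4.67 were lowest, mouse 4 at -3.42 was highest, and day 5 mice 2 and 4 were lowest at -1.47 and -1.10. Other red cell precursor genes, described below, did not all share this order. On day 2 Fech was lowest in mouse 2 (-2.5) and mouse 1 (-2.42) and highest in mouse 3 (-0.21). Tfrc was lowest in mouse 2 (-1.13) and mouse 1 (-0.95), while Tspo2 was lowest in mouse 3 (-1.51) and highest in mouse 4 (-0.48). At Rhd probe 017E20 mouse 2 was lowest and mouse 5 highest on day 2, with no value in mouse 3. In the untreated group mouse 2 was lowest for Rhd probe 031C19 and Icam4. Mouse 3 was lowest for Rhd probe 017E20 (-0.24) and for Kel. The Kel value of mouse 3 rested on 1 technical array (-2.21 against -0.17 in the other). With the second array alone for that mouse, mouse 2 (-0.30) was the lowest for Kel as well.

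Untreated mouse 2 was low at Rhd in both technical arrays (-2.15 and -2.09), although its arrays agreed poorly over all probes (correlation 0.651). The same mouse was the lowest untreated mouse for Rhag (-2.05, others -0.64 to 0.17), for the red cell regulator Gata1 (-1.77, others -0.19 to 0.00) and for Stom (-1.66, others -1.06 to -0.66). It was also the lowest untreated mouse for Fut1 (-1.28, others -0.61 to 0.07) and Icam4 (-0.59, others -0.16 to 0.57). For Kel (-0.30) it was close to untreated mouse 1 (-0.28), and only mouse 3 lay lower. For Alas2 (-0.29) and Ermap (-0.10) it lay inside the range of the other untreated mice. Without this mouse the difference of Rhd probe 031C19 from untreated was -3.01 on day 1, -3.87 on day 2 and -0.60 on day 5.

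**Figure D3:**
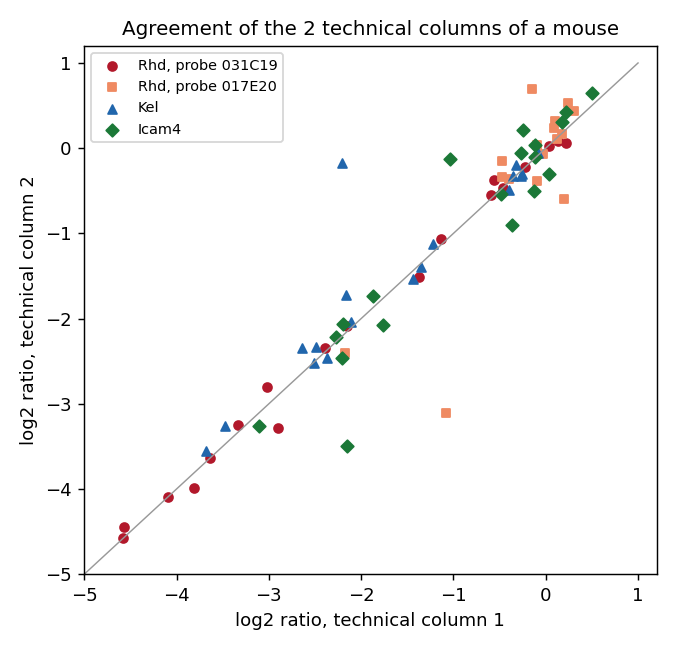
Log2 ratio of technical array 1 (horizontal axis) against technical array 2 (vertical axis) for each mouse and member probe with both values; the line marks equal values. Most points lie on the line, and the 2 farthest from it are untreated mouse 3 for Kel and day 2 mouse 1 for Rhd probe 017E20, each with a gap of 2.04.

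The technical arrays agreed best at Rhd probe 031C19, with a median gap of 0.06 and a highest gap of 0.38 over 19 mice. The median gap was 0.09 for Kel and 0.20 for Icam4 over 19 mice each, and 0.185 for Rhd probe 017E20 over 16 mice, against 0.126 over all probes. Only the highest gaps of Kel (2.04), Icam4 (1.34, day 2 mouse 3) and Rhd probe 017E20 (2.04) exceeded 1.23, the 99th percentile over all probes.

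Of the other blood group genes, Fut1 and Ermap fell after treatment. A list of 37 carriers of blood group antigens, partners of the Rh and Kell proteins and enzymes that build carbohydrate antigens had 28 genes with a probe and 15 that could be tested. By limma with Benjamini-Hochberg adjustment over all 8319 probes at 0.05, 2 fell and 0 rose on day 1, 2 fell and 1 rose on day 2, and 0 changed on day 5 against untreated mice, where 1 had an unadjusted p under 0.05. Of all probes 2.33% changed on day 1 (0.938% rose, 1.39% fell), 8.31% on day 2 (3.31% rose, 5% fell) and 0.0721% on day 5 (0.0481% rose, 0.024% fell). The median difference of the list was -0.07, 0.00 and -0.03 on the 3 days, beside 0.02, 0.01 and 0.01 over all probes.

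Fut1, which makes the H antigen on which A and B antigens are built, had the largest fall of the list. Its log2 ratios were 0.07, -1.28, -0.29, -0.61 and -0.42 in untreated mice, -1.5, -1.78, -0.99 and -1.46 on day 1, -2.18, -2.25, -3.05, -2.81 and -2.59 on day 2 and -0.13, -0.56, -0.71, -1.04 and -0.57 on day 5. All day 2 mice lay below all other mice. Fut1 fell by 0.92 on the log2 scale on day 1 (SE 0.24, adjusted p = 0.0447) and 4.19-fold on day 2 (log2 -2.07 ± 0.23, adjusted p = 4.13e-06), and it rose 3.93-fold from day 2 to day 5 (log2 1.98 ± 0.23, adjusted p = 1.29e-05). The day 1 call was lost in 11 of 19 fits that each left out 1 mouse, for example without untreated mouse 1 (-0.78, adjusted p = 0.109).

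Ermap, the carrier of the Scianna blood group, fell 2.62-fold on day 1 (log2 -1.39 ± 0.27, adjusted p = 0.00677). Its log2 ratios were -0.19, -0.10, 0.08, -0.47 and 0.23 in untreated mice and -0.51, -2.35, -1.38 and -1.66 on day 1. The day 1 mice were all under the untreated range, mouse 1 only just. On day 2 Ermap fell by 0.91 (SE 0.26, adjusted p = 0.0299) and from day 2 to day 5 it rose by 0.88 ± 0.26 (adjusted p = 0.0482), and both calls were lost after quantile normalization (adjusted p = 0.093 and 0.164). Gcnt2, the enzyme that branches the I antigen, rose by 0.53 ± 0.15 on day 2 at 1 probe (adjusted p = 0.0313) and had -0.03 ± 0.22 at its other probe, and the call was lost after quantile normalization (adjusted p = 0.12).

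The direct partners of the Rh and Kell proteins did not pass the test. Rhag, which carries the Rh complex to the surface, differed from untreated mice by 0.26 ± 0.30 on day 1 (adjusted p = 0.806) and -0.16 ± 0.29 on day 2 (adjusted p = 0.796), with day 1 mice at -0.27, -0.28, -0.57 and -0.57. Single untreated mice set the sign of both values: without untreated mouse 2 they were -0.09 and -0.50, and without untreated mouse 3 they were 0.47 and 0.05. Xk, the partner of Kell, differed by -0.07 ± 0.17 on day 1 (adjusted p = 0.936) and 0.00 ± 0.16 on day 2 (adjusted p = 0.993), with day 2 mice at 0.39, -0.12, 0.03, -0.69 and -0.37. Ranges of the untreated and treated mice overlapped for both partners. Slc4a1, the anion exchanger that anchors the membrane to its skeleton, had a value in 1 untreated and 1 day 5 mouse and was not tested.

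**Figure D4:**
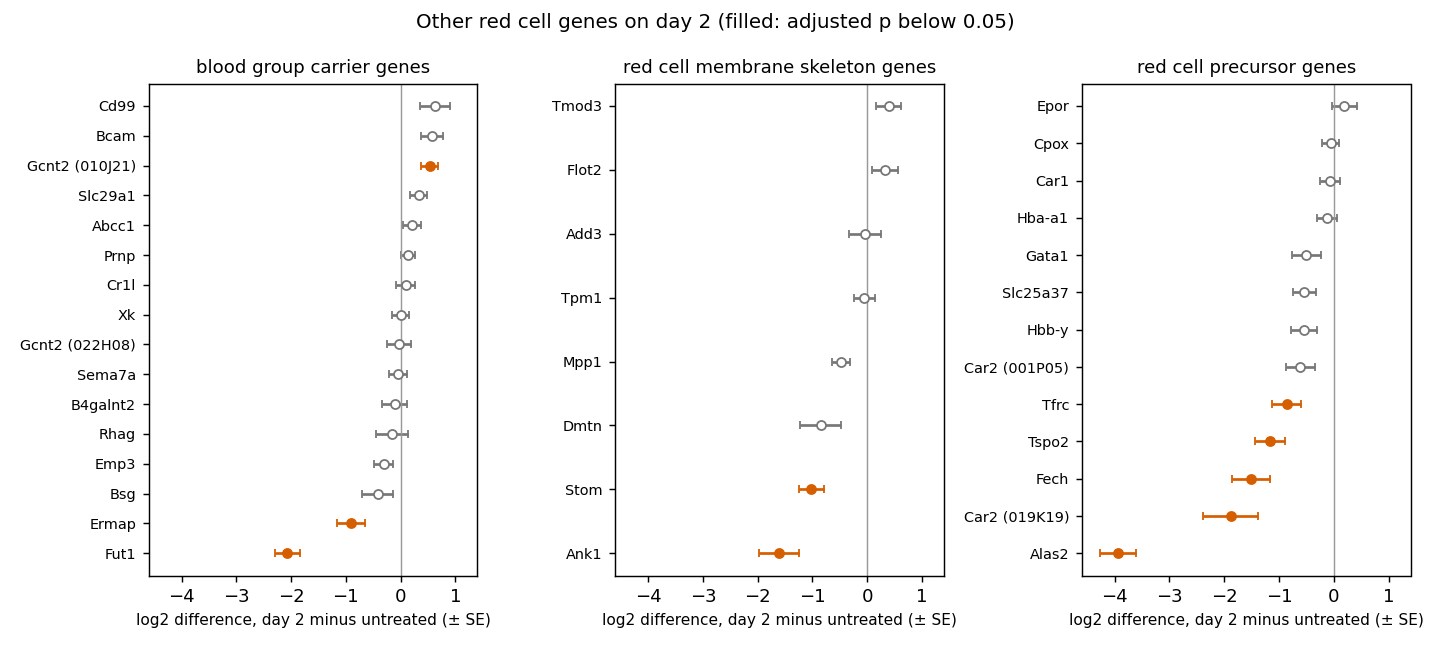
Log2 difference between day 2 and untreated mice (horizontal axis, bars ± SE) for each tested probe of the blood group carrier, red cell membrane skeleton and red cell precursor lists (rows); filled points passed an adjusted p of 0.05 in limma. Fut1 (-2.07), Ank1 (-1.61) and Alas2 (-3.94) are the lowest of their lists, and Rhag and Xk lie near 0.

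Genes of the membrane skeleton, the protein net under the red cell membrane, included 1 that fell on day 1 and 2 that fell on day 2 among 8 tested of 17. Of all probes, 1.39% fell on day 1 and 5% on day 2. The median difference of the skeleton genes was -0.37 on day 1 and -0.27 on day 2, beside 0.02 and 0.01 over all probes. Ank1, the ankyrin that ties the skeleton to the membrane, had -0.84, -0.34, -0.43, -0.36 and -0.57 in untreated mice, -1.31, -2.09, -2.18 and -2.91 on day 1, -1.75, -1.46, -3.22, -1.15 and -3.0 on day 2 and 0.13, -1.08, -0.58, -1.23 and -0.04 on day 5. Day 1 and day 2 mice did not reach the untreated range. Ank1 fell by 1.61 on both days (day 1 SE 0.39, adjusted p = 0.0269; day 2 SE 0.36, adjusted p = 0.00739) and rose by 1.56 ± 0.36 from day 2 to day 5 (adjusted p = 0.0132).

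Stom, which encodes the membrane protein stomatin, fell by 1.02 on day 2 (SE 0.23, adjusted p = 0.00625) and rose by 0.99 ± 0.23 from day 2 to day 5 (adjusted p = 0.011). After quantile normalization neither gene passed on day 2 (Ank1 -0.94, adjusted p = 0.167; Stom -0.55, adjusted p = 0.113) or from day 2 to day 5 (Ank1 0.79, adjusted p = 0.309; Stom 0.16, adjusted p = 0.755), and Ank1 had -1.51 on day 2 (adjusted p = 0.06) when the 3 mice whose technical arrays correlated below 0.7 were left out. The day 1 call of Ank1 was lost in 6 of 19 fits that each left out 1 mouse.

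Of 29 red cell precursor genes 12 were tested; 2 fell on day 1 and 5 fell on day 2, 0 rose on either day, and 4 rose from day 2 to day 5. Of all probes, 1.39% fell and 0.938% rose on day 1, and 5% fell and 3.31% rose on day 2. From day 2 to day 5, 5.3% of all probes changed (3.8% rose, 1.5% fell), and from day 1 to day 2, 0.0601% changed and all of them fell. Alas2 fell 3.01-fold on day 1 (log2 -1.59 ± 0.33, adjusted p = 0.0112) and 15.4-fold on day 2 (log2 -3.94 ± 0.32, adjusted p = 1.24e-07), and rose 11.3-fold to day 5 (log2 3.49 ± 0.32, adjusted p = 8.78e-07). It was the 1 precursor gene that fell between day 1 and day 2 (log2 -2.35 ± 0.33, adjusted p = 0.00291), a call lost after quantile normalization (-1.59, adjusted p = 0.358). Tspo2, a membrane protein of erythroblasts, fell by 1.24 ± 0.29 on day 1 (adjusted p = 0.024) and by 1.16 ± 0.27 on day 2 (adjusted p = 0.01). The day 1 call of Tspo2 was lost in 6 of 19 fits that each left out 1 mouse, and the day 2 call under quantile normalization (-0.95, adjusted p = 0.0593), equal spread between arrays (adjusted p = 0.0836), technical array 1 alone (adjusted p = 0.162) and without the 3 mice of low technical correlation (adjusted p = 0.0896).

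The other precursor genes that fell on day 2 were Fech, which inserts iron into heme (-1.51 ± 0.35, adjusted p = 0.00932), the carbonic anhydrase gene Car2 at 1 of its 2 probes (-1.88 ± 0.50, adjusted p = 0.0219) and the transferrin receptor gene Tfrc (-0.86 ± 0.26, adjusted p = 0.0442). Gata1 differed by -0.50 ± 0.26 (adjusted p = 0.284). Without untreated mouse 2, the low mouse for this gene, Gata1 fell by 0.84 (SE 0.17, adjusted p = 0.00317). It passed without the 3 mice of low technical correlation (-0.85, adjusted p = 0.0137), but that setting leaves out the same untreated mouse 2. The globin gene Hba-a1 differed by -0.13 ± 0.18 (adjusted p = 0.717). Klf1, another regulator of red cell genes, had values in 2 of 5 day 2 mice and was not tested. Without day 1 mouse 2 neither day 1 call held (Alas2 -1.30, adjusted p = 0.0645; Tspo2 -1.30, adjusted p = 0.0521), and without day 2 mouse 5 Car2 had -1.21 on day 2 (adjusted p = 0.0762). The Tfrc call was lost in 13 of 19 fits that each left out 1 mouse. The day 2 call of Fech was lost in 0 of these fits, but it was lost without the 3 mice of low technical correlation (-1.49, adjusted p = 0.0582). In whole spleen cells, a loss of erythroblasts and less RNA of these genes in each erythroblast cannot be told apart.

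Genes of other cell types were followed in the same mice. A score for each mouse, the median over a list of values centred on the mean of all mice, spanned 0.25 to 0.48 for red cell precursor genes in untreated mice, -0.27 to 0.08 a day after the drug, -0.66 to -0.05 after 2 days and 0.05 to 0.50 after 5 days. For genes of dividing cells it ran from 0.14 to 0.90, -0.69 to -0.26, -1.30 to -0.28 and 0.17 to 0.90 in the same groups. Of 9 such genes 5 fell on day 1 and on day 2, beside 1.39% and 5% of all probes. For macrophage genes the score spanned -0.66 to -0.32, -0.02 to 0.42, -0.18 to 0.62 and -0.33 to 0.09. Of 7 macrophage genes 1 rose on day 1 and 3 on day 2, beside 0.938% and 3.31% of all probes. B cell genes (6 tested) and T cell genes (4 tested) had 0 calls on days 1 and 2 (1 B cell gene on day 2 had an unadjusted p under 0.05), with median differences between 0.18 and 0.38. Megakaryocyte and platelet genes (3 tested) had median scores of -0.71 in untreated mice, -0.06 on day 1, 0.16 on day 2 and 0.47 on day 5. Of these Itga2b, a platelet integrin gene named here after its values were seen, rose by 0.85 ± 0.21 on day 2 (adjusted p = 0.0157) and by 1.11 ± 0.20 on day 5 (adjusted p = 0.0396). It was the 1 gene of the 3 called on each of these days, beside 3.31% and 0.0481% of all probes that rose. The day 5 call was not robust: 0 of all probes passed on day 5 with either technical array alone, with the replicate number as a block or without untreated mouse 2. Neutrophil genes (3 tested) had median scores of -0.26, 0.06, -0.36 and 0.25 in the 4 groups, and 0 were called on days 1 and 2 (1 on day 2 had an unadjusted p under 0.05). The part of these shifts in the levels of Rhd, Kel and Icam4 was not tested.

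Genes whose profile lay nearest to each member were found by the root mean square gap, over the mice, between values set relative to each probe's own untreated mean. Among probes of genes other than the 3 members, those for Rhd probe 031C19 were Mgst3 (0.528), Alas2 (0.727), Vav2 (0.911), the centromere protector Sgo1 (0.927) and Btnl10 (0.978), among 5748 probes with a median gap of 2.25. Kel (0.875) was nearer to this probe than all of these but Mgst3 and Alas2, and Icam4 (0.957) was nearer than Btnl10. For Kel they were Depdc1a (0.367), Sgo1 (0.416), Ube2l6 (0.46), the cohesin acetyltransferase gene Esco2 (0.484) and Tuba3a (0.487), with a median gap of 1.56. For Icam4 they were Depdc1a (0.496), Sgo1 (0.518), Ank1 (0.522), the kinetochore gene Cenpk (0.553) and the mitotic activator Cdc20 (0.559), with a median gap of 1.49, each over 19 mice. Kel and Icam4 were 0.517 apart, with 6 other probes nearer to Kel and 1 nearer to Icam4.

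Rhd probe 017E20 lay nearer to other genes than to the other members. Its nearest were Glt8d2 (0.25), Cuta (0.291), Taf6 (0.409), Nfatc2ip (0.409) and the thymidine kinase gene Tk1 (0.417) over 17 mice. Its gap to the other Rhd probe was 1.69, larger than its gap to 5541 of 5565 probes, and its gaps to Kel and Icam4 were 1.08 and 1.07. The median gap was 0.9 for this probe and 2.25 for Rhd probe 031C19. Seen from the other side, 121 of 5748 probes were nearer to Rhd probe 031C19 than probe 017E20 was. From Kel and Icam4, 160 and 180 probes were nearer than probe 017E20.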

How the data were processed

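Per the labels, each spleen sample (Cy5) was hybridised with a common pool of bone marrow cells (Cy3) on a 2-colour array, with 2 technical arrays per mouse and 38 arrays in all. The labels call the pool untreated, while its treatment field names cyclophosphamide; the pool cancels between groups. The values are log2 ratios as deposited by the authors, with array medians from -0.0212 to 0.0132 and a bound at 6; 63.2% of values were present, 5829 to 10407 per array. The authors' normalization is not described in the labels or headers.

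The 2 technical values of a mouse were averaged (correlation 0.581 to 0.962, below 0.7 in 3 mice), and 1 was used where the other was missing. Probes with values in fewer than 3 mice of a group were left out. Group means were fitted in limma 3.58.1 (R 4.3.3) over all 4 groups, with Benjamini-Hochberg adjustment over 8319 probes; the script was tested on simulated data. Of the probes, 10032 had 1 gene symbol, 170 several and 3241 none. The number of mice, 4 or 5 per group, limits the precision. The labels call the mice biological replicates without saying more, so p-values measure the spread between these samples, and a mouse number is shared between groups only as a number: residuals of 27 same-numbered pairs had a mean correlation of -0.00472 (-0.249 to 0.325).

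The members and the lists were chosen with earlier results of these data known. Beside the members, every gene of the blood group carrier, membrane skeleton and red cell precursor lists that passed in any of 5 comparisons was named (at most 12 per list), with Rhag, Xk, Slc4a1, Klf1, Gata1 and Alas2 in any case; 1 further gene of this rule is not reported here. For each member the 5 nearest probes of other genes with at least 15 shared mice were named. Alternatives were quantile normalization, equal spread between arrays, each technical array alone, other filters, only the groups compared, the replicate number as a block, and leaving out each mouse or the 3 mice of low technical correlation.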

Additional observations from a re-analysis of the deposited data

Results flagged for a closer look

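At Rhd probe 031C19 untreated mouse 2, at a log2 ratio of -2.12, stood far below the other 4 untreated mice, with a gap to the nearest of 0.733 of the group's whole range. For Kel untreated mouse 3, at -1.19, stood below the others with a gap of 0.793 of the range. These 2 were found among 16 groups of 4 or 5 mice checked, and chance alone sets apart about 1 group in 20. The Rhd value was alike in both technical arrays (-2.15 and -2.09), while the Kel value averaged -2.21 and -0.17.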

How the results depend on the processing

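The differences of the 4 member probes kept their direction under every alternative wherever the difference exceeded the spread between mice. Quantile normalization moved 4 of them by more than that spread: Rhd probe 031C19 from day 2 to day 5 (2.23), and Kel on day 2 (-1.76), from day 1 to day 2 (-0.06) and from day 2 to day 5 (1.17). The cause was not tested. Leaving out single mice gave day 2 differences from untreated of -3.87 to -3.31 for Rhd probe 031C19, -1.71 to -0.96 for Rhd probe 017E20, -2.61 to -2.21 for Kel and -2.60 to -1.97 for Icam4.

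Of all probes, the number that changed on day 1 was 116 with equal spread between arrays, 113 without the 3 mice of low technical correlation, 76 at an adjusted p of 0.01 and 99 to 219 with single mice left out. On day 2 it was 338 with quantile normalization, 345 with equal spread, 449 with only the groups compared, 409 without the 3 mice and 316 at 0.01. On day 5 it was 0 with either technical array alone, with the block and at 0.01, 11 without a filter, 1 with only the groups compared and without the 3 mice, and 0 to 5 with single mice left out. From day 1 to day 2 it was 0 with quantile normalization and with equal spread, 1 with only the groups compared, 3 with the block and at 0.01, and 3 to 9 with single mice left out. From day 2 to day 5 it was 83 with quantile normalization, 142 with equal spread and 192 at 0.01.

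Blood group carrier genes called on day 1 numbered 1 with equal spread, technical array 2, no filter, only the groups compared and 0.01, and 1 to 2 with single mice left out. On day 2 they numbered 1 with quantile normalization, equal spread, without the 3 mice and at 0.01 (1 to 3 with single mice left out), and from day 1 to day 2 they numbered 1 with technical array 1 (0 to 1). From day 2 to day 5 they numbered 1 with quantile normalization, equal spread, technical array 2, no filter, the block, without the 3 mice and at 0.01 (1 to 2). Skeleton genes called on day 1 numbered 0 with equal spread, technical array 1, without the 3 mice and at 0.01 (0 to 1). On day 2 and from day 2 to day 5 they numbered 0 with quantile normalization and equal spread and 1 with technical array 1 and without the 3 mice, and from day 2 to day 5 also 0 at 0.01.

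Precursor genes called on day 1 numbered 0 with equal spread, without the 3 mice and at 0.01, 1 with technical array 1, and 0 to 3 with single mice left out. On day 2 they numbered 3 with quantile normalization and with only complete probes, 2 with equal spread, without the 3 mice and at 0.01, and 3 to 5 with single mice left out. From day 1 to day 2 they numbered 0 with quantile normalization, equal spread and only the groups compared (1 to 2). From day 2 to day 5 they numbered 1 with quantile normalization, equal spread and 0.01, 2 with either technical array, the block and without the 3 mice, and 1 to 4 with single mice left out. With the replicate number as a block, the day 2 differences were -3.47 for Rhd probe 031C19 and -1.61 for Rhd probe 017E20. The number does not pair the mice. Calls of named genes lost numbered 18 with equal spread, 15 without the 3 mice of low technical correlation and 13 with quantile normalization. They numbered 8 with technical array 1, 6 with technical array 2, 6 with only the groups compared, 4 without a filter and 4 with the block. The causes of these changes were not tested.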
